A study of Mus musculus and Homo sapiens with 15 samples.

Results

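The 34 genes described here are those of the sterol regulatory element-binding protein (SREBP) system: its regulators, the enzymes of cholesterol and fatty acid synthesis that it switches on, and 3 genes of the liver X receptor (LXR), which acts when sterol is plentiful. They were chosen by a list of symbols that was drawn up with earlier results of these libraries in view, read counts in all groups included. All 34 were found among the 52340 genes of the W/W mouse table and the 56691 genes of the C57 mouse table, and 34 human orthologues among the 61806 genes of the U937 table, where Cyp51 is CYP51A1 and Scd2 is set beside SCD. Because the values helped to choose the list, counts of its members past a threshold describe these libraries and are not independent support for any direction.

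SREBP-2, encoded by Srebf2, and SREBP-1, encoded by Srebf1, are made as membrane proteins of the endoplasmic reticulum. When cell sterol is low, SCAP carries them to the Golgi, where proteases free the part that enters the nucleus and turns on the genes of sterol and fatty acid synthesis. When sterol is high, INSIG proteins hold SCAP back, and oxysterols activate LXR, whose targets Abca1 and Abcg1 export cholesterol and whose target Mylip encodes a ligase that removes lipoprotein receptors. Insig1 is itself an SREBP target, and dividing cells draw on the pathway for membrane lipid.

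The series holds 15 RNA-seq libraries made with or without arsenic trioxide (ATO). In 9 of them RNA came from the thymus of W/W mice, homozygous for p53 R282W, with T-cell lymphoma at day 150 after birth: 3 were given water, 3 had ATO and a progressing tumour, and 3 had ATO and a regressing tumour. The outcome defines both ATO groups, so treatment and outcome cannot be told apart when either is compared with water. In 4 libraries RNA came from grafted tumours in C57 mice (a cell line-derived xenograft, or CDX, model with the genotype label WT), 2 after phosphate-buffered saline (PBS) and 2 after ATO. The remaining 2 libraries, 1 after PBS and 1 after ATO, are of U937, a human myeloid leukaemia line, carrying p53 R282W. The sources used here give no ATO dose or duration, and the labels do not name the grafted cells. They do not say that replicates are separate animals either, and if they are not, p-values measure only the spread between these libraries.

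The W/W libraries held 12800367 to 17550594 counts each and the graft libraries 12922147 to 15637644. U937 had 17872972 counts after PBS and 16454534 after ATO. Cd3e, part of the T-cell receptor complex, was at 108.4 to 327.9 CPM (counts scaled to a common library size) in the W/W libraries, but water libraries had 2, 0 and 1 counts of the thymocyte gene Ptcra, and Rag1 was at 0.617 to 2.29 CPM there. The other cells of the tissue also differed between groups: the summed CPM of 8 B-cell markers was 106.5 to 3519 in water, 14.9 to 44.7 in progressing and 117.7 to 177.7 in regressing libraries. In bulk tissue fewer cells of a type and less RNA per cell cannot be told apart.

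Promoters of 3 human genes are shown because their genes bear on the U937 result: INSIG1 and DHCR7, among the members with the lowest ratios, and SREBF2, which holds a match to the sterol regulatory element core. Each is the 250 bases before the start of the Ensembl canonical transcript (GENCODE v44) on GRCh38, written 5′ to 3′ on the gene's strand. Capitals mark matches on either strand to the sterol regulatory element core (TCACNCCAC), the box bound by NF-Y (CCAAT), a factor known to act with SREBP, and the E-box (CACGTG). INSIG1 lies at chr7:155297628-155297877 (plus strand), DHCR7 at chr11:71448394-71448643 (minus) and SREBF2 at chr22:41832855-41833104 (plus).
INSIG1: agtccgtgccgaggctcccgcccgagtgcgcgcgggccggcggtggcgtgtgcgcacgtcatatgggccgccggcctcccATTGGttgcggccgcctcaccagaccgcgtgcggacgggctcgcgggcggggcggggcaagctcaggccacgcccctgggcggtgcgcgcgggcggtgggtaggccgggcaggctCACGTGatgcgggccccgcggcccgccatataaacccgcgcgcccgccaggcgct
DHCR7: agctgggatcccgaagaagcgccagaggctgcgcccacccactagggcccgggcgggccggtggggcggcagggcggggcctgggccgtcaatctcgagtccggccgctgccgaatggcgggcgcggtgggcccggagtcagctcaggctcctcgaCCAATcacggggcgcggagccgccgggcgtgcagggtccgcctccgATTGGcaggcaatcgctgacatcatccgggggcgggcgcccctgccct
SREBF2: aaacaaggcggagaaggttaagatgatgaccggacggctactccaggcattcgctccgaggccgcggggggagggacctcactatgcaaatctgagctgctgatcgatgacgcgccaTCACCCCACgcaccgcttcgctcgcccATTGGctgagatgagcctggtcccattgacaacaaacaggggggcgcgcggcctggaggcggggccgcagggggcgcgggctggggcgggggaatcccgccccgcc
In SREBF2 the core match lies 133 to 125 bases upstream of the start, and the NF-Y box, read as ATTGG, 106 to 102 bases upstream. INSIG1 has ATTGG at 170 to 166 bases and an E-box at 55 to 50 bases upstream, and DHCR7 has CCAAT at 94 to 90 and ATTGG at 48 to 44.

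Among all 34 human members, 23 promoters (67.6%) held CCAAT on either strand, against 6873 of 20020 protein-coding promoters of the same length (34.3%). The core TCACNCCAC was in 2 of 34 (5.88%) against 193 of 20020 (0.964%), and CACGTG in 4 of 34 (11.8%) against 7.86%. The 2 members with the core were SREBF2 and FASN, the member with the lowest ratio, whose promoter is not shown here. Of the 23 members at least 2-fold lower in U937 cells after ATO, 18 (78.3%) held CCAAT, and of the other 11 members 5 (45.5%) did. The core was in 2 (8.7%) and 0 of them, while CACGTG went the other way, in 1 (4.35%) and 3 (27.3%). The other 11 include the LXR targets, and HSD17B7 and ELOVL6 at 1 or 2 counts. In the RefSeq promoter table for GRCm38.p6, which held 27 of the 34 mouse members in windows of 300 bases, CCAAT was in 20 (74.1%) against 37.9% of 27025 promoters. These are matches of letters in a window and show no binding.

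In U937 cells most of the synthesis genes stood far lower in the ATO library than in the PBS library, while the LXR export genes stood higher. Of the 32 members with a mean of at least 1 CPM, 23 were at least 2-fold lower after ATO and 2 at least 2-fold higher, on the scale of log2(CPM + 1) with CPM scaled by total counts. Over all 13722 genes rated, 8.53% were at least 2-fold lower and 15.3% at least 2-fold higher. The median log2 ratio was -1.84 for the members and 0.13 for all rated genes. With 1 library per condition this compares 2 libraries and not the conditions, has no replicate check and gives no p-value. The intervals given are exact 95% counting intervals of the ratio of CPM and cover counting error only.

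**Figure D1:**
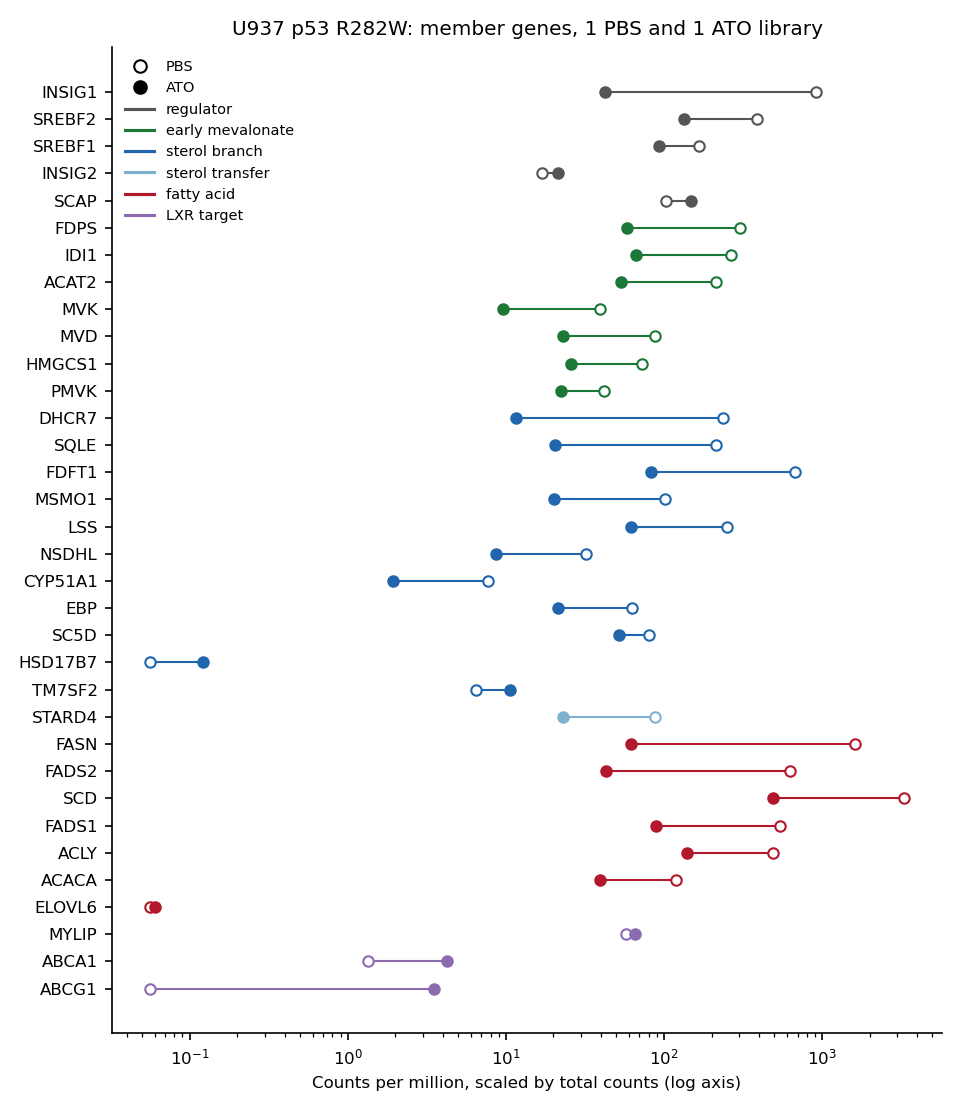
CPM of each of the 34 members in the U937 PBS library (open circle) and ATO library (filled circle), on a log axis, coloured by role. The filled circle lies left of the open one for all 6 rated fatty acid genes, for the 7 early mevalonate genes and for 9 of the 10 rated sterol branch genes, and right of it for the 3 LXR targets. HSD17B7 and ELOVL6, at 1 or 2 counts, were not rated.

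FASN, the fatty acid synthase, had 28778 counts after PBS and 1023 after ATO, or 1610 and 62.2 CPM. That is 25.9-fold lower (24.3 to 27.6) and the lowest log2 ratio of the 13722 rated genes. SCD, which makes monounsaturated fatty acids, went from 59249 to 8106 counts, 6.73-fold lower (6.58 to 6.89), and was the most abundant member per length in both libraries. FADS2 and FADS1, desaturases of polyunsaturated fatty acids, were 14.7-fold (13.6 to 15.9) and 6.13-fold (5.80 to 6.48) lower, from 11260 to 704 and from 9731 to 1461 counts; their exons share bases, so their reads may not be fully separate. ACLY, which supplies cytosolic acetyl-CoA, was 3.49-fold lower and ACACA, which makes malonyl-CoA, 3.03-fold lower, so that all 6 rated genes of this branch were past 2-fold. The fatty acid genes together took 0.671% of all counts after PBS (exact binomial 95% interval 0.667 to 0.675) and 0.0867% (0.0853 to 0.0881) after ATO.

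In the sterol branch DHCR7, the last step to cholesterol on one route, had 4225 counts after PBS and 190 after ATO, 20.5-fold lower (17.7 to 23.8), the fifth lowest log2 ratio of all rated genes. SQLE, the epoxidase of squalene, was 10.4-fold lower (9.34 to 11.7), from 3822 to 337 counts. FDFT1, squalene synthase, was 8.07-fold lower (7.63 to 8.54), from 12034 to 1373 counts. MSMO1, LSS, CYP51A1, NSDHL and EBP, enzymes that close and trim the sterol ring system, were 5.08-, 4.08-, 3.97-, 3.69- and 2.92-fold lower, making 8 of 10 rated members of the branch. CYP51A1 rests on 138 and 32 counts (2.69 to 6.03). SC5D was 1.54-fold lower, and TM7SF2, a sterol reductase, was 1.64-fold higher (1.29 to 2.09) on 116 and 175 counts. Exons of CYP51A1 and of TM7SF2 share bases with other genes on the same strand, VPS51 for TM7SF2, so their reads may not be fully separate.

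Upstream in the mevalonate pathway 6 of 7 members were at least 2-fold lower. FDPS, which joins isoprene units, was 5.198-fold lower, MVK, mevalonate kinase, 4.16-fold, IDI1 4.03-fold, ACAT2 3.96-fold, MVD 3.81-fold and HMGCS1, the synthase at the entry to the pathway, 2.82-fold. PMVK was 1.89-fold lower. STARD4, a cytosolic sterol carrier, was 3.80-fold lower, from 1561 to 378 counts.

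The regulators did not move as a block. INSIG1 went from 16491 to 695 counts, from 922.7 to 42.2 CPM, 21.8-fold lower (20.3 to 23.6), or per length 252.8 and 11.6 FPKM (a count scaled by gene length and library size). SREBF2 was 2.90-fold lower (2.76 to 3.04), from 6949 to 2207 counts, and SREBF1 1.79-fold lower (1.68 to 1.91), from 2978 to 1531. With trimmed mean (TMM) factors in place of total counts SREBF1 also passes 2-fold, at a log2 ratio of -1.04. SCAP was 1.42-fold higher (1.34 to 1.51) and INSIG2, a relative of INSIG1, 1.27-fold higher (1.09 to 1.49).

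Among the LXR targets ABCA1 had 24 counts after PBS and 70 after ATO, 3.17-fold higher (1.97 to 5.27). ABCG1 had 1 and 58 counts, a ratio of 63.0 with a counting interval of 10.9 to 2531. Both stayed below 5 CPM in either library. MYLIP was nearly level, at 1025 and 1075 counts, 1.14-fold higher (1.05 to 1.24), and with TMM factors its log2 ratio was -0.02. All 34 members together took 1.115% of counts after PBS (1.11 to 1.12) and 0.195% (0.193 to 0.197) after ATO. Other genes moved beside them: 8 of 12 proliferation genes were at least 2-fold lower, their summed CPM going from 3473 to 1380, and 4 of 9 rated myeloid markers were lower and 1 higher, from 2799 to 979.5 summed CPM. Their part in the result was not tested.

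In the W/W thymus 18 of 34 members lay above 0 and 16 below when both ATO outcomes were compared with water (26 and 8 with total counts only, which moves the median of all genes from -0.11 to 0.01), and 1 of them, Ebp, passed against water under either outcome. Ebp encodes the sterol isomerase that shifts a ring double bond late in cholesterol synthesis. In edgeR's quasi-likelihood test over 18119 genes, Ebp fell in regressing, in progressing and in all ATO-treated thymuses against water, Fads2 rose in progressing against water, and regressing against progressing Fasn was higher and Mvk lower. The members past an adjusted p of 0.05 numbered 1 of 34 in regressing against water (7.7% of all genes tested), 2 in progressing against water (11.9%), 2 in regressing against progressing (12.6%) and 1 in both ATO outcomes together against water (10.9%). At an unadjusted p under 0.05 the counts were 7, 4, 8 and 4 of 34, where 28%, 28.6%, 31.7% and 29% of all genes tested were. The median log2 fold change of the members was 0.14, 0.08, 0.05 and 0.03, beside -0.12, -0.04, -0.07 and -0.11 for all genes. These comparisons share libraries, so their values are given side by side only.

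**Figure D2:**
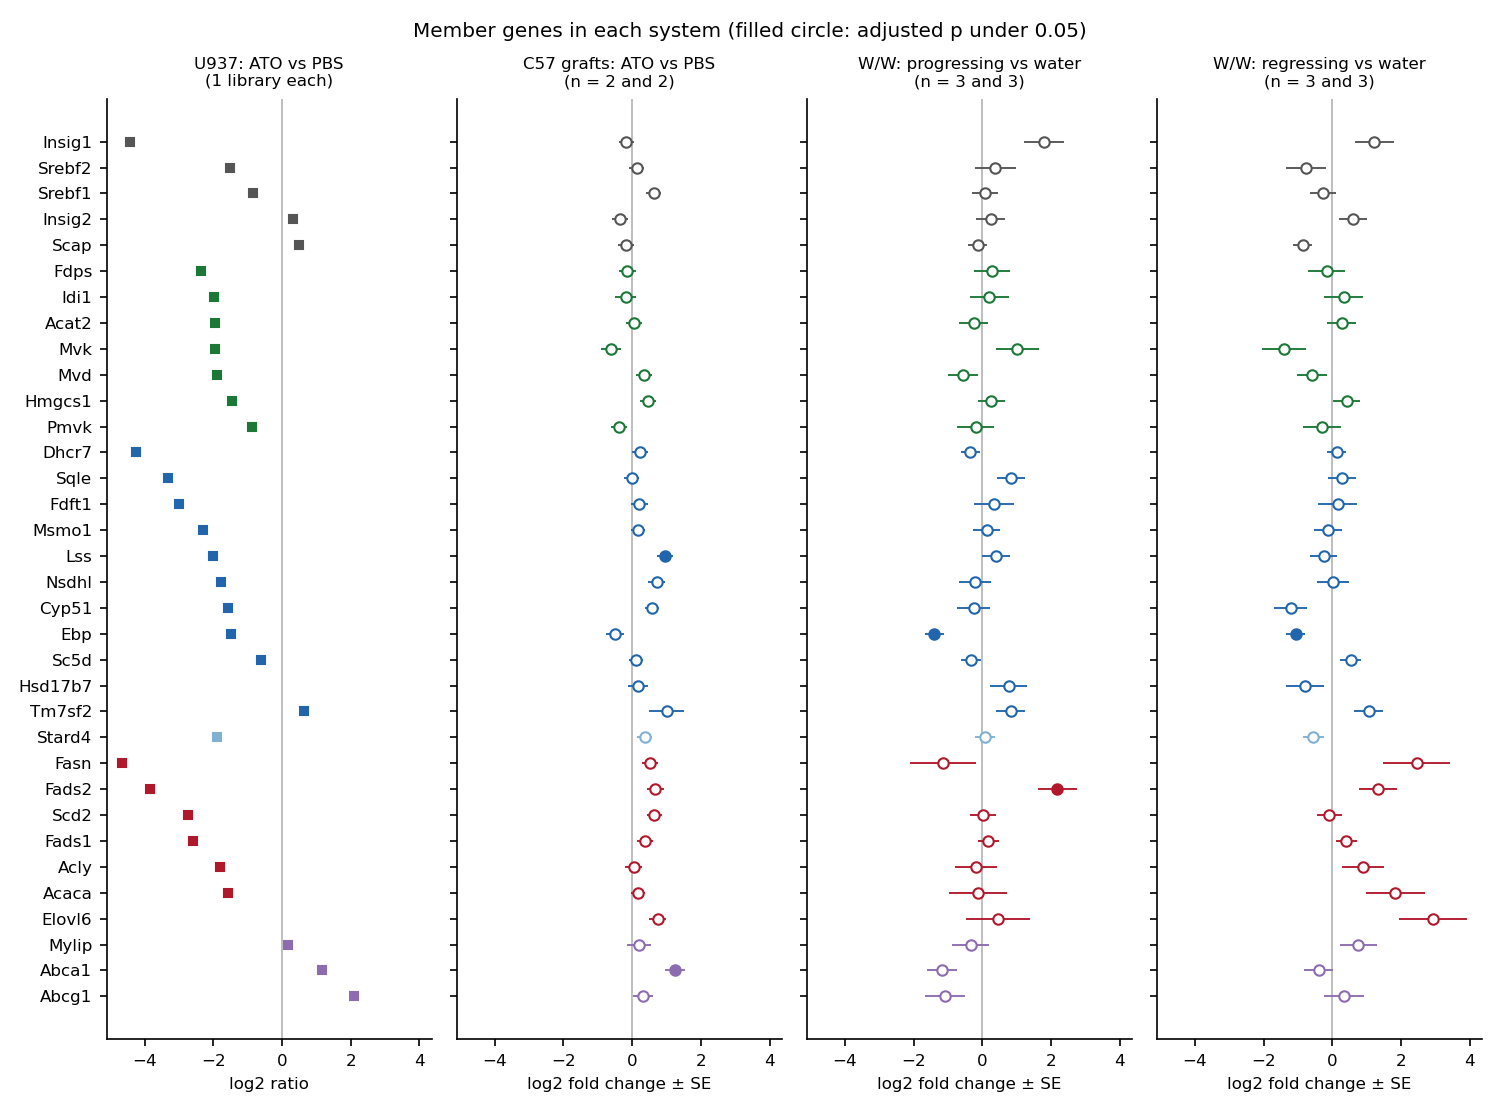
Log2 fold change of each member, grouped by role, in regressing and progressing W/W thymuses against water, in ATO-treated against PBS-treated C57 grafts, and as the log2 CPM ratio in U937 cells; circles show the value with its SE, filled where it passed the test (adjusted p under 0.05), and squares show U937, which has no test. Members lie on both sides of 0 in the W/W comparisons, 25 of 34 lie above 0 in the grafts, and 26 of 32 rated lie below 0 in U937.

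Ebp stood at 57.9, 68.2 and 56.3 CPM (scaled by TMM) in the water libraries, at 24.8, 24.5 and 19.8 in the progressing libraries and at 27.9, 28.6 and 30.5 in the regressing libraries. All 6 ATO libraries lay below all 3 water libraries. The group means were 60.8 ± 6.45 (SD, n = 3), 23.0 ± 2.82 and 29.0 ± 1.36 CPM. Ebp was 2.64-fold lower in progressing than in water (log2 fold change -1.40, SE 0.28, edgeR adjusted p = 0.0124) and 2.10-fold lower in regressing than in water (-1.07, SE 0.28, edgeR adjusted p = 0.0437). With both outcomes against water the fold was 2.35 (-1.23, SE 0.23, edgeR adjusted p = 0.0103), and this call held in 9 of 9 fits that left out 1 library each. The regressing call did not pass in any of 6 such fits (edgeR adjusted p 0.0704 to 0.202), with log2 fold changes of -1.12 to -0.89. Of all genes 0.312 to 6.31% passed in those fits, beside 7.7% with every library. The progressing call passed in 5 of 6, reaching 0.0501 without progressing library 3. The regressing call was also lost with total counts only and with no filter on low counts (adjusted p 0.0883 and 0.197), and the progressing call when water and progressing were fitted alone (0.0506).

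**Figure D3:**
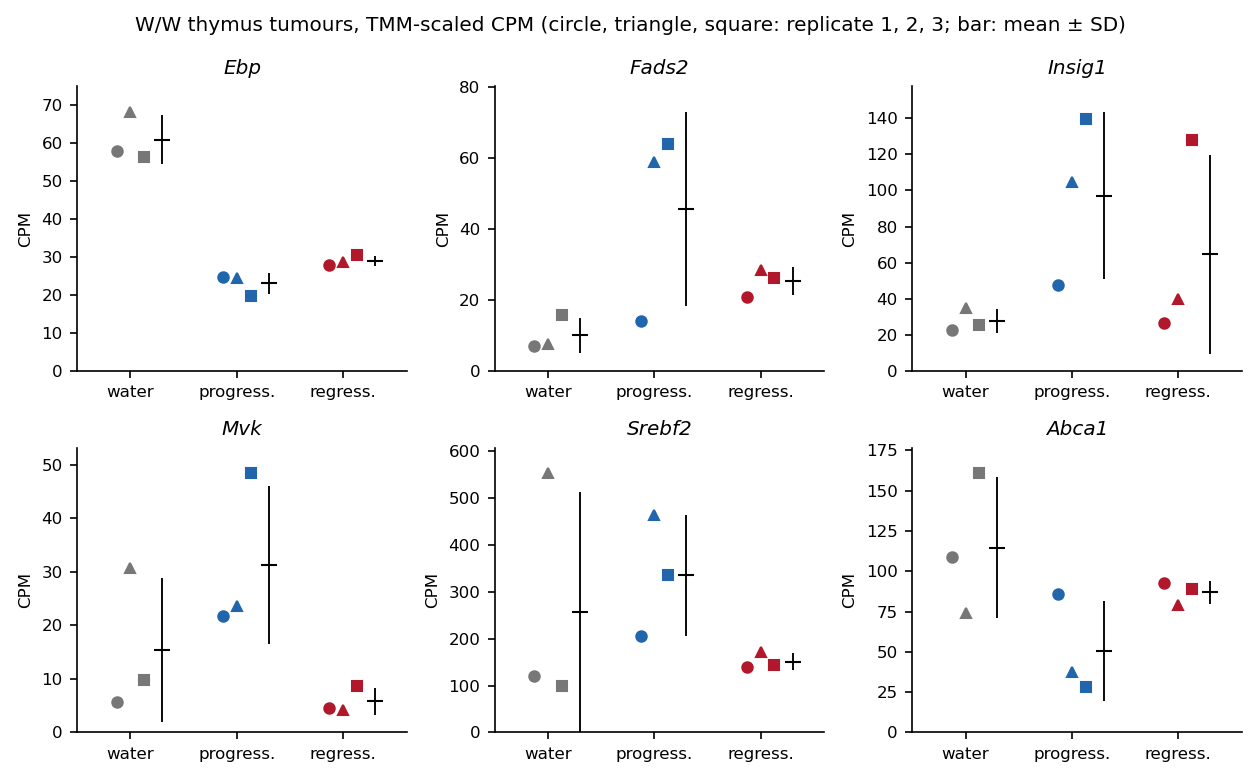
TMM-scaled CPM of 6 members in each W/W library (water, ATO progressing, ATO regressing; n = 3 per group), with the mean and SD of each group. Ebp separates the 3 water libraries from the 6 ATO libraries, and Mvk separates the regressing from the progressing libraries, while Srebf2 is high in water library 2 only among the water libraries, at 552.7 CPM.

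Fads2, the desaturase of polyunsaturated fatty acids, was at 6.90, 7.48 and 15.7 CPM in water, 14.1, 58.8 and 63.9 in progressing and 20.9, 28.5 and 26.3 in regressing libraries. It was 4.53-fold higher in progressing than in water (log2 fold change 2.18, SE 0.57, edgeR adjusted p = 0.0335), although progressing library 1 lay below water library 3. The call passed in 2 of 6 fits with 1 library left out, those without water library 3 (2.65) and without progressing library 1 (2.61), and not in the other 4 (1.87 to 2.03, adjusted p 0.065 to 0.104). It was also lost when water and progressing were fitted alone (adjusted p = 0.0852). In regressing against water all 3 libraries lay above water, with a log2 fold change of 1.33 that did not pass (adjusted p = 0.148).

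Mvk, the kinase that phosphorylates mevalonate, was at 5.68, 30.8 and 9.88 CPM in water, 21.8, 23.7 and 48.4 in progressing and 4.52, 4.24 and 8.64 in regressing libraries. Every regressing library lay below every progressing library, and the water range overlapped both. Mvk was 5.39-fold lower in regressing than in progressing thymus (log2 fold change -2.43, SE 0.66, edgeR adjusted p = 0.0398). The call passed without progressing library 1 (-2.63) and was lost in the other 5 fits with 1 library left out (-2.77 to -1.98, adjusted p 0.0608 to 0.146). Hsd17b7, a sterol ketoreductase, was 7.28, 17.1 and 29.6 CPM in progressing and 5.01, 4.94 and 8.38 in regressing libraries, a log2 fold change of -1.56 that did not pass (adjusted p = 0.0901). In this comparison 8 of 10 thymic epithelium markers were higher, summing to 93.5 to 150.5 CPM in progressing and 1643 to 1916 in regressing libraries, and 4 of 8 fibroblast markers were lower, from 811 to 1385 against 135.8 to 453 CPM. Thymocyte markers, 1 of 12 higher, summed to 3880 to 4668 against 6130 to 12000 CPM. Their part in the Mvk and Hsd17b7 values was not tested.

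Of the fatty acid genes, Fasn, Acaca, Elovl6 and Acly were set apart in the regressing group by 1 library. The others were not highest there: the regressing libraries had Scd2 at 352.6, 445.8 and 381.5 CPM, Fads1 at 42.26, 51.25 and 39.17 and Fads2 at 20.9, 28.5 and 26.3. Fasn was at 311.2, 336.6 and 302.2 CPM in water, 76.1, 192.0 and 161.9 in progressing and 128.6, 493.8 and 4568 in regressing libraries. Regressing against progressing, Fasn was 12.1-fold higher (log2 fold change 3.59, SE 1.03, edgeR adjusted p = 0.0466), but the ranges overlap, and without regressing library 3 the log2 fold change was 1.20 (adjusted p = 0.196). It passed in 1 of 6 fits with 1 library left out, that without regressing library 1, and was lost without each of the other 5. It was lost too when regressing and progressing were fitted alone (adjusted p = 0.0676). Against water the value was 2.45 (adjusted p = 0.135), and 0.07 without that library. Acaca, Elovl6, which lengthens fatty acids, and Acly were likewise highest there, at 640.1, 388.5 and 1344 CPM, beside 25.6 and 91.4, 14.7 and 54.8, and 186.5 and 303.5 in the other regressing libraries. None of these 3 passed: Elovl6 had a log2 fold change of 2.94 against water (adjusted p = 0.0874) and Acaca one of 1.84 (adjusted p = 0.195), which turned to -0.17 without regressing library 3. With no filter on low counts Elovl6, Fasn and Acaca passed against water (adjusted p = 3.1e-05, 0.000438 and 0.00501).

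Regressing library 3 was also the library richest in fat cell markers. The summed CPM of 12 adipocyte markers was 64.0, 176.2 and 96.8 in water, 128.7, 1448 and 251.5 in progressing and 195.7, 723.9 and 5868 in regressing libraries. Plin1, which coats the lipid droplets of fat cells, had 9, 0 and 0 counts in water and 77, 362 and 3983 in regressing libraries, and Adipoq, which encodes adiponectin, 39, 2 and 63 against 78, 290 and 2358. In regressing against water 4 of the 12 markers were called higher and none lower. Progressing library 2, second highest for this sum, had Fasn at 192.0 CPM, below every water library. Fabp4 alone made up 1052 CPM of its sum, and 338.3 CPM of that of regressing library 2. Single markers ranked these 2 libraries differently. Plin1 was at 12.3 CPM in progressing library 2 and 25.5 in regressing library 2, and Cfd at 85.2 and 28.2. The 7 fatty acid members took 0.772% of all counts in regressing library 3 and 0.0890 to 0.163% in each of the other 8. The 11 sterol branch members took 0.0457% there, inside the range of 0.0250 to 0.0467% of the others. The 7 early mevalonate members took 0.0273% there, above the range of 0.0132 to 0.0238% of the others. Mitochondrially encoded genes took 8.48% of the counts of regressing library 3, beside 2.08 and 2.96% in the other regressing libraries. Progressing library 2 had a higher share, 8.83%. Progressing libraries 1 and 3 had 4.70 and 4.86%, and the water libraries 2.55 to 3.79%. The part of the fat cell markers and of the mitochondrial share in these values was not tested.

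**Figure D4:**
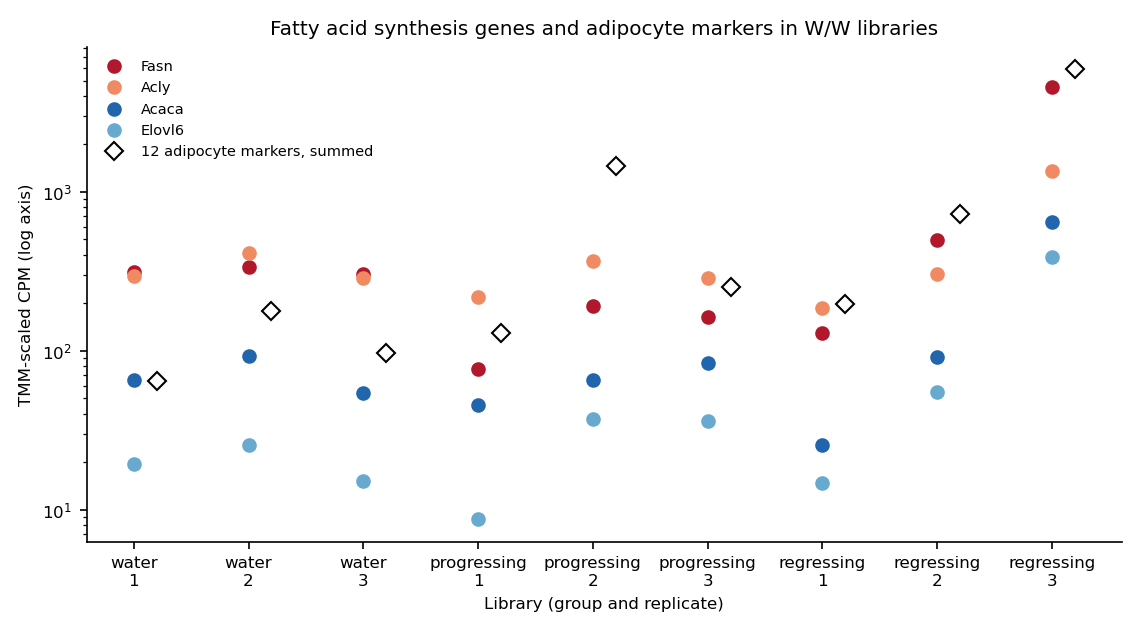
CPM of Fasn, Acaca, Elovl6 and Acly in the 9 W/W libraries, with the summed CPM of the 12 adipocyte markers as open diamonds beside each library's points, on a log axis. Regressing library 3 is highest for the markers, at 5868 CPM, and for all 4 genes, with Fasn at 4568 CPM.

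Of the 5 regulators 0 passed edgeR's test in the 4 W/W comparisons, and 1 had an unadjusted p under 0.05 in each: Scap in both comparisons of the regressing group, Insig1 in the others. Insig1 was at 22.6, 35.1 and 25.6 CPM in water, 47.5, 104.5 and 139.5 in progressing and 26.4, 39.7 and 127.9 in regressing libraries. All progressing libraries lay above all water libraries (log2 fold change 1.81, SE 0.59, edgeR adjusted p = 0.0695), a difference that passed with DESeq2 (adjusted p = 0.0223). Srebf1 was at 75.2 to 158.3 CPM in water, 76.6 to 173.9 in progressing and 88.8 to 127.1 in regressing libraries, with log2 fold changes of 0.08 and -0.27 against water. Srebf2 stood at 120.1, 552.7 and 100.1 CPM in water, 206.4, 463.6 and 334.9 in progressing and 138.7, 172.0 and 143.0 in regressing libraries. Its direction in regressing against water turned with water library 2, from -0.77 with it to 0.54 without it. In progressing against water Srebf2 was at 0.38, at 1.61 without water library 2, where it passed (edgeR adjusted p = 0.0194), and at -0.02 without water library 3. Regressing against progressing it was at -1.15 and passed (adjusted p = 0.0466) when fitted with those 6 libraries alone. Scap, which escorts the SREBPs, was at 93.2 to 98.8 CPM in water, 62.5 to 111.7 in progressing and 48.8 to 56.0 in regressing libraries, so that the regressing libraries lay below all others, but did not pass (log2 fold change -0.86 against water, edgeR adjusted p = 0.077, and -0.73 against progressing, adjusted p = 0.101).

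Among the LXR targets in the thymus Abca1 was at 109.0, 74.3 and 160.7 CPM in water, 86.0, 37.4 and 27.9 in progressing and 92.6, 79.1 and 88.8 in regressing libraries. Its log2 fold change in progressing against water was -1.18 (edgeR adjusted p = 0.1). Abcg1 was at 38.8, 96.5 and 11.98 CPM in progressing and 156.8, 141.6 and 92.7 in regressing libraries, a difference of 1.41 (adjusted p = 0.127). Mylip was higher in every regressing library (60.7 to 73.9 CPM) than in any water (30.1 to 52.8) or progressing library (7.79 to 49.5), but neither difference passed (adjusted p 0.385 and 0.192). Macrophages carry much Abca1, and 12 macrophage markers summed to 1794 to 2607 CPM in water, 354.4 to 1531 in progressing and 588.6 to 1027 in regressing libraries. Lyz2 alone held 621.7 to 1800 CPM in water, 111.9 to 754.4 in progressing and 156.6 to 456.1 in regressing libraries. Against water 0 of the 12 markers were called in regressing libraries, and 1 lower and 0 higher in progressing libraries. The part of these markers in the LXR target values was not tested.

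Per length, the W/W water libraries held most Scd2, at a mean of 69.1 FPKM (55.5 to 81.3), then Acly at 57.9, Srebf2 at 29.5, Fasn at 27.3 and Ebp at 24.7 FPKM. Tm7sf2, at 1.35 FPKM, was the lowest. In the U937 PBS library the order was SCD, INSIG1, FASN and FDFT1, at 632, 252.8, 172.7 and 129.6 FPKM. The tables were normalized separately, so levels are compared within a table only.

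In the C57 grafts 2 members rose with ATO, 1 for sterol synthesis and 1 for sterol export. Of 34 members, 2 passed in edgeR's test over 15468 genes, where 13.9% of all genes did, and 9 of 34 had an unadjusted p under 0.05, where 31.8% of all genes did. The median log2 fold change was 0.20 for the members and 0.04 for all genes, and 25 members lay above 0. With counts scaled by library total alone, the median of all genes moves to 0.23 and that of the members to 0.40, 30 lie above 0 and 8 pass, where 15% of all genes do. Without ATO library 1, 9 passed (15% of all genes), and without PBS library 1 none did (4.15% of all genes).

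**Figure D5:**
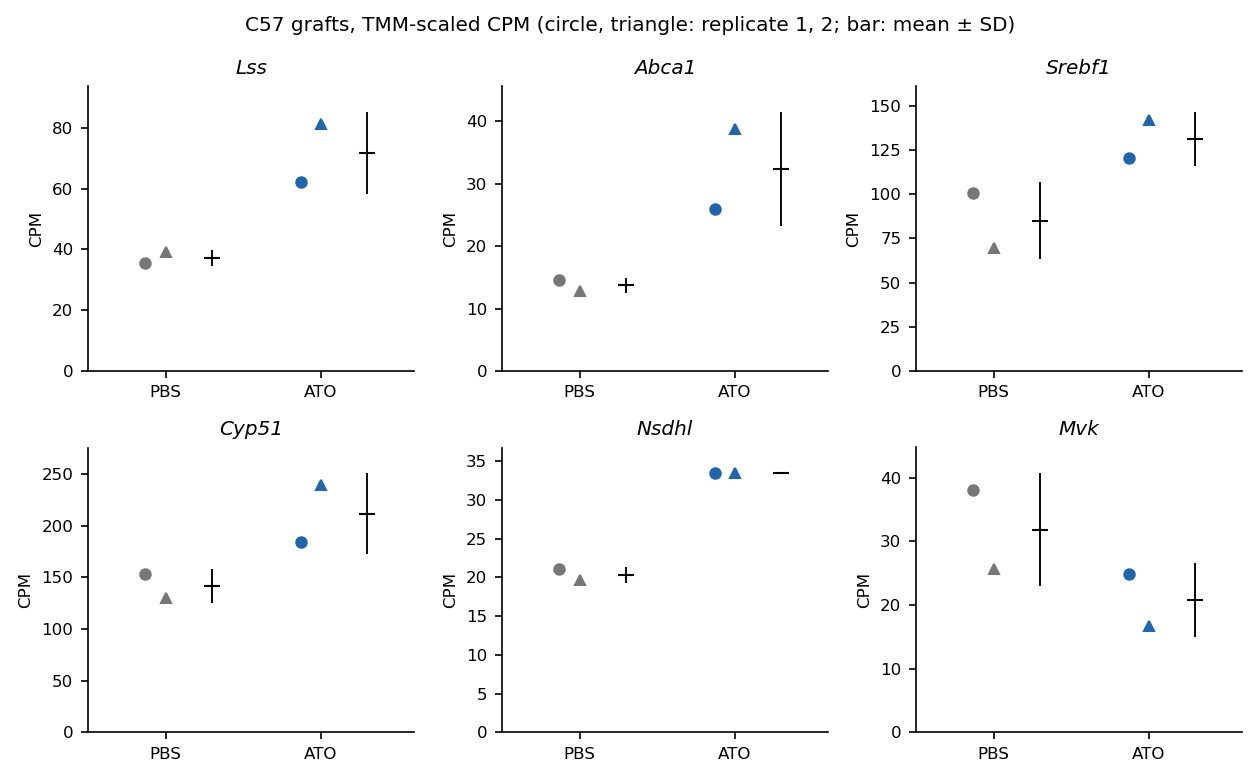
TMM-scaled CPM of 6 members in each C57 graft library (PBS and ATO, n = 2 each), with the mean and SD beside the points. Both ATO libraries lie above both PBS libraries for Lss, Abca1, Srebf1, Cyp51 and Nsdhl, and below them for Mvk; among the 6, Lss and Abca1 passed the test.

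Lss, the cyclase that forms lanosterol, was at 35.4 and 39.0 CPM after PBS and 62.3 and 81.3 after ATO. It was 1.93-fold higher after ATO (log2 fold change 0.95, SE 0.22, edgeR adjusted p = 0.0213). Its exons share bases with those of a gene on the other strand, and strand use in counting is not given in the sources used here. Abca1, the cholesterol exporter, was at 14.6 and 12.9 CPM after PBS and 26.0 and 38.9 after ATO, 2.36-fold higher (1.24, SE 0.29, edgeR adjusted p = 0.0214). Leaving out 1 library at a time, Lss passed in 2 of 4 fits (lost without PBS library 1 at 0.87 and without ATO library 2 at 0.73) and Abca1 in 1 of 4 (kept without ATO library 1 at 1.49, lost at 1.32, 1.13 and 0.90 without PBS 1, PBS 2 and ATO 2).

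Srebf1 was at 100.6 and 69.5 CPM after PBS and 120.3 and 142.0 after ATO, a log2 fold change of 0.62 that did not pass (edgeR adjusted p = 0.0847). Srebf2 (352.5 and 240.7 against 295.6 and 352.3 CPM) and Insig1 (162.4 and 114.5 against 129.6 and 116.2 CPM) overlapped between the groups. Elovl6 was at 30.2 and 37.8 against 48.7 and 65.2 CPM (adjusted p = 0.0593) and Nsdhl at 21.0 and 19.6 against 33.4 and 33.4 CPM (adjusted p = 0.073). Tm7sf2 had the largest log2 fold change that did not pass, 1.00 (adjusted p = 0.196), from 3.42 and 3.69 CPM after PBS and 10.4 and 3.88 after ATO. Its exons share bases with those of Vps51 on the same strand. Ebp, at 41.5 and 27.7 CPM after PBS and 26.0 and 22.8 after ATO, did not overlap and did not pass (-0.50, adjusted p = 0.225). Abcg1 (35.9 and 33.8 against 29.1 and 57.5 CPM) and Mylip (8.37 and 9.40 against 9.96 and 10.5 CPM) did not pass either.

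All members took 0.306 and 0.271% of counts after PBS and 0.342 and 0.460% after ATO, with the fatty acid genes at 0.111 and 0.107% against 0.134 and 0.201%. Host tissue moved too: 5 of 8 fibroblast markers were higher after ATO, with summed CPM of 502.5 and 252.1 against 670.6 and 1712, and 2 of 8 skeletal muscle markers were higher. The mitochondrial share of counts was 0.520 and 1.02% after PBS and 5.98 and 4.03% after ATO. Macrophage markers, 4 of 11 lower, summed to 938.6 and 700.0 against 423.2 and 381.7 CPM, and thymocyte markers to 7470 and 6166 against 5183 and 4172 CPM. Their part in the member values was not tested.

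A further 30 genes of sterol and fatty acid handling, outside the member list, were described the same way. Of all genes tested, 7.7% passed in regressing against water, 11.9% in progressing against water and 12.6% in regressing against progressing. The share was 10.9% in both outcomes against water and 13.9% in the grafts. Of all rated U937 genes 8.53% were at least 2-fold lower and 15.3% at least 2-fold higher. In regressing against water 3 passed higher, Acss2 (acetyl-CoA synthetase), Soat1 (cholesterol esterification) and Mbtps1 (site-1 protease, which cleaves SREBPs), with log2 fold changes of 2.76, 1.85 and 1.14, and 2 lower, Tmem97 (-3.10) and Elovl1 (-1.12). In progressing against water Acsl4 (1.54) was higher, and Nr1h3, which encodes LXR-alpha (-2.07), and Elovl1 (-1.11) were lower. Acsl4 was the 1 gene that passed in regressing against progressing (-1.27). In both outcomes against water Soat1 (1.32) and Mbtps1 (1.03) were higher, and Tmem97 (-2.32) and Elovl1 (-1.12) lower. In the grafts 3 of 28 tested passed, all lower: Apoe (-1.44), Npc2 (-1.05) and Tmem97 (-0.79), each by edgeR's test. Tmem97, a sterol-binding membrane protein of the endoplasmic reticulum, was also the 1 gene of the list at least 2-fold lower in U937 (-2.08), where 5 of 27 rated were higher: FADS3 (2.50), APOE (1.76), ACACB (1.41), ACSL1 (1.36) and NR1H2 (1.19).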

How the data were processed

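The 34 member genes and the marker lists were chosen with earlier results of these data known. RNA was isolated with TRIzol and libraries made with a SMARTer mRNA-Seq kit, per the labels' protocols, which also hold a passage on cell culture that does not describe these tissues. The submitters' processing notes name FastQC 0.10.1, cutadapt 1.9.1 and HISAT2 2.0.1. Which program counted the reads, whether by strand, and with which annotation is not given in the sources used here; 11 mouse and 17 human members share exon bases with another gene. The deposited tables of the authors hold unnormalized read counts for each gene beside FPKM values that the authors scaled by exonic gene size and a library total; counts were tested and FPKM used only for levels per length.

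Of the W/W genes 99.4% had the start and end of GENCODE vM21 (GRCm38), of the U937 genes 98.2% those of GENCODE v44 (GRCh38), and of the C57 genes 2.83% those of vM21, so no C57 coordinates were used. The test was that of edgeR 4.0.16, run in R 4.3.3 (filterByExpr, TMM, quasi-likelihood test, Benjamini-Hochberg over all genes tested, threshold 0.05), the 9 W/W libraries in 1 fit and the 4 C57 libraries in another, after the method was tested on simulated data. TMM factors ran from 0.747 to 1.16 in the W/W table. U937 ratios used CPM with a pseudocount of 1, where the mean of both libraries reached 1 CPM. Genes named with tests are the members past the threshold, Srebf1, Srebf2, Insig1, Abca1, Abcg1, Mylip and, in each comparison, the 3 other members of largest fold change; other members are given by level. DESeq2 1.42.0, other scalings, filters, a replicate block and leaving out each library were tried as alternatives.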

Additional observations from a re-analysis of the deposited data

Results flagged for a closer look

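Regressing and progressing thymuses, both given ATO, differed for Mvk, with a log2 difference of -2.43, and for Fasn, with 3.59, both past edgeR's threshold. Against water Mvk did not pass in regressing or progressing thymuses (edgeR adjusted p = 0.182 and 0.322), nor did Fasn (0.135 and 0.467). The Mvk call passed in 1 of 6 fits with 1 library left out. The Fasn value rests on regressing library 3.

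In 9 members both graft ATO libraries lay above both PBS libraries while the U937 ATO library lay at least 2-fold below its PBS library. The U937 log2 ratios were -1.46 for Hmgcs1, -2.01 for Lss, -1.57 for Cyp51, -2.29 for Msmo1, -1.77 for Nsdhl, -4.67 for Fasn, -2.75 for Scd2 (SCD in human), -2.60 for Fads1 and -3.85 for Fads2. Of these, Lss alone passed the test in the grafts. In Ebp and Mvk both graft ATO libraries lay below both PBS libraries, and the U937 log2 ratios were -1.50 and -1.95. The share of all genes whose graft libraries separate in this way was not counted, so the 9 members have no background beside them. The difference between the systems was not tested, since they differ in species and tissue and U937 has 1 library per condition.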

How the results depend on the processing

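The number of members called moved as follows, with the share of all genes tested that passed in the same fit given as a percentage. Regressing against water, 1 (7.7%) became 0 (7.13%) with total counts only. With no filter on low counts it became 4 (7.81%), namely Acaca, Fasn, Elovl6 and Insig1, without Ebp. The replicate block gave 0 (5.28%; Ebp, edgeR adjusted p = 0.0769) and DESeq2 4 (9.19%). Each fit without a single library gave 0 (0.312 to 6.31%). Progressing against water, 2 (11.9%) became 1 (5.32%) with only the compared groups (Insig1, with Ebp and Fads2 lost), and 0 to 3 (4.78 to 13.3%) without single libraries. Regressing against progressing, 2 (12.6%) became 5 (10.5%) with no filter, 1 (8.81%) with the replicate block (Fasn lost) and 4 (11.8%) with DESeq2. Without single libraries it was 0 to 3 (0.922 to 10.5%). With only the compared groups it stayed 2 (19.4%), with Srebf2 in place of Fasn. Both outcomes against water, 1 (10.9%) became 2 (10.9%) with RLE size factors, 4 (9.51%) with no filter and 2 (6.79%) with the replicate block. It became 4 (9.75%) with DESeq2, and 1 to 3 (3.42 to 11%) without single libraries. In the grafts, 2 became 8 with total counts only and 0 to 9 without single libraries. The U937 count of 25 stayed within 22 to 27. Same-numbered W/W libraries did not deviate together (r from -0.124 to 0.136), so the numbers were not taken as pairs. In the grafts r was -0.13 for same-numbered libraries and 0.13 for the others. With 2 libraries per group these values are opposites by construction, so they cannot tell whether the numbers are pairs. A crossed replicate block, added after seeing the data, gave 6 members, where 21.3% of all genes tested passed.

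The signs that changed were those of members not called under the settings of the report. With total counts only, both outcomes against water gave 0.009 for Srebf1 and 0.079 for Srebf2, and the grafts 0.027 for Insig1; with the replicate block both outcomes gave 0.149 for Srebf2. Without single libraries, Srebf2 ran from -1.154 to 0.539 (without water 2) and Acaca from -0.175 (without regressing 3) to 2.379 in regressing against water. In progressing against water Srebf1 ran from -0.193 to 0.367, Srebf2 from -0.016 to 1.608 and Mylip from -0.749 to 0.133. In regressing against progressing Acaca ran from -0.077 to 2.511. In both outcomes Srebf1 ran from -0.366 to 0.088 and Srebf2 from -0.585 to 1.073. In the grafts Srebf2 ran from -0.146 to 0.417, Insig1 from -0.428 to 0.090 and Abcg1 from -0.280 to 0.713. The cause of these changes was not tested. Total counts in place of TMM moved the median log2 fold change of all genes from -0.12 to 0.09 in regressing against water and from -0.07 to 0.13 in regressing against progressing.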
